A study of Sus scrofa with 12 samples.

Results

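The genes described here make, break down, carry and sense retinoic acid, the active form of vitamin A. They are 10 named genes, of which 8 had a row under their own symbol among the 21674 genes of the coding table. These were ALDH1A1, ALDH1A2 and ALDH1A3 (synthesis), CYP26A1 (degradation), RARA and RARB (receptors), STRA6 (uptake) and CRABP1 (carrier). CYP26B1 was found by its description, cytochrome P450 26B1, in a row with the symbol LOC100521659. RARG had no coding row and was represented by 6 transcripts annotated as noncoding, which were counted in the lncRNA table of 10706 transcripts and are summed here. The RARG values therefore describe these transcripts and not a coding RARG mRNA.

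Testis RNA was sequenced from 12 boars in 4 groups of 3 libraries. Ha were Hezuo pigs of 30 days, Hb were Hezuo pigs of 120 days, La were Landrace pigs of 30 days and Lb were Landrace pigs of 120 days. Each library came from whole testis of 1 boar, so that each value is an average over the cells of the tissue. Estimated counts over all coding genes totalled from 17165519 (Hb replicate 3) to 23758931 (Ha replicate 1) per library. The design compared the ages within each breed (Ha vs Hb and La vs Lb) and the breeds at each age (Ha vs La and Hb vs Lb), and each group enters 2 of these comparisons, so that they share libraries and are not independent. The library Hb replicate 1 stood apart from the other Hb libraries, since the summed level of 7 Leydig cell markers was 4065, 331 and 268 CPM in Hb replicates 1, 2 and 3, where CPM are counts scaled to the size of each library with TMM factors.

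Retinoic acid is made from retinol, which is first oxidized to retinal and then to the acid by the retinaldehyde dehydrogenases of the ALDH1A family, and it is cleared by the CYP26 hydroxylases. It binds nuclear receptors of the RAR family, which act as partners of RXR proteins. In the testis it is known to be needed for the differentiation of spermatogonia and for the entry of germ cells into meiosis, in which STRA8 is a classical target.

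Between 30 and 120 days, the synthesis enzymes ALDH1A1 and ALDH1A2 and the hydroxylase CYP26A1 were called higher in both breeds. Here called means an edgeR p under 0.05 after Benjamini-Hochberg adjustment over all genes tested, together with a log2 fold change beyond 1 in either direction, and fold changes are those of the second group named over the first. In these bulk samples, fewer cells of a type and less RNA per cell cannot be told apart. Levels are given as CPM, and as FPKM (fragments scaled to transcript length and library size) where genes are set beside each other. In Ha vs Hb, 4 of the 8 genes with a coding row of their own were called higher, where 28.2% of all genes tested were called higher, and 1 was called lower, where 23.2% of all genes were, 51.4% in both directions together. In La vs Lb, 5 of the 8 were called higher beside 27.5% of all genes, and 0 were called lower by edgeR, DESeq2 or limma beside 20.1% of all genes by edgeR (47.6% in both directions). All 8 had an unadjusted edgeR p under 0.05 in La vs Lb, as did 12065 of all 16637 genes tested. RARA was the 1 of the 8 with a negative log2 fold change there. The median log2 fold change of the 8 with age was 1.08 in Hezuo and 1.71 in Landrace, where the median of all genes was -0.02 and 0.01.

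Between the breeds at 30 days (Ha vs La), ALDH1A1 and CRABP1 were called lower and ALDH1A3 higher in Landrace. These are 2 of 8 lower beside 4.01% of all genes and 1 of 8 higher beside 3.6%, or 3 of 8 beside 7.62%. At 120 days (Hb vs Lb), edgeR called 0 of the 8, as did DESeq2 and limma, while edgeR called 3.85% of all genes, 2.65% higher and 1.2% lower in Landrace. RARA was the 1 gene of the 8 with an unadjusted edgeR p under 0.05 there, beside 4153 of all 16311 genes tested. An interaction of breed and age, which tests whether the change with age differs between the breeds, was called for CRABP1, 1 of the 8, beside 5.14% of all genes, 3.51% with a positive and 1.62% with a negative value.

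Without Hb replicate 1, the 5 calls in Ha vs Hb were kept, with log2 fold changes of 1.64 for ALDH1A1, 1.73 for ALDH1A2, 1.38 for ALDH1A3, 2.09 for CYP26A1 and -1.06 for RARA. RARB and CRABP1, not called in Ha vs Hb with it, were at 0.79 and -0.49 without it and again not called. The scaling of the libraries moved the median of all genes in the age comparisons. Against TMM, it moved by -0.30 with library size alone, -0.32 with upper-quartile factors, -0.26 on log2(FPKM + 1) and -0.45 on log2(FPKM + 0.1) in Ha vs Hb, and by -0.17, -0.26, -0.17 and -0.28 in La vs Lb. The shift was also over 0.1 on log2(FPKM + 0.1) in Hb vs Lb (0.11) and in the interaction (0.16), and with library size alone in the interaction (0.15). Values under such a scaling are given below also relative to the median of all genes.

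ALDH1A1 (Sscrofa11.1, chromosome 1 from 226163347 to 226217342), a cytosolic retinaldehyde dehydrogenase, was measured at 88.5, 111 and 88.8 CPM in Ha, 132, 320.5 and 275 in Hb, 51.4, 29.6 and 47.1 in La and 176, 122 and 206 in Lb. All 120-day libraries of a breed lay above all 30-day libraries of that breed, and all La libraries lay below all Ha libraries, while Hb and Lb overlapped. Within Hb, replicate 1 was the low library. The level was 2.51-fold higher in Hb than in Ha (log2 fold change 1.33 ± 0.31 SE, edgeR adjusted p = 0.00645) and 3.98-fold higher in Lb than in La (log2 fold change 1.99 ± 0.26 SE, edgeR adjusted p = 0.000176). At 30 days it was 2.26-fold lower in Landrace (log2 fold change -1.17 ± 0.20 SE, edgeR adjusted p = 0.00736), and this call was lost without La replicate 2, at -0.96. On FPKM, Hb replicate 1 lay just under the Ha libraries (34.9, 98.1 and 77.3 FPKM in Hb against 35.3, 44.6 and 35.2 in Ha), and limma on log2(FPKM + 1) gave 0.74 in Ha vs Hb with no call (1.02 relative to the median of all genes).

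ALDH1A2 (chromosome 1 from 113932722 to 114037059), the dehydrogenase that supplies much of the retinoic acid of the embryo, was measured at 81.1, 80.1 and 75.0 CPM in Ha, 372, 343 and 176 in Hb, 59.9, 46.6 and 54.3 in La and 233, 233 and 186 in Lb. The Hb libraries spread widely, with replicate 3 far below the other two, yet each of them lay above each Ha library, and the same held for Lb over La. The rise with age was 3.77-fold in Hezuo (log2 fold change 1.92 ± 0.27 SE, edgeR adjusted p = 0.000597) and 4.09-fold in Landrace (log2 fold change 2.03 ± 0.14 SE, edgeR adjusted p = 3.88e-06), and it was called under every alternative that was run. The La libraries lay below the Ha libraries, with a log2 fold change of -0.56 ± 0.11 SE that passed the adjusted p (edgeR, 0.0109) and not the fold threshold.

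ALDH1A3 (chromosome 1 from 139451080 to 139491514), the third enzyme of the family, differed from the other two in its breed pattern. It was measured at 34, 34.7 and 50.9 CPM in Ha, 86.4, 131 and 75.7 in Hb, 101, 78.4 and 92.4 in La and 140.3, 107 and 124 in Lb. The Ha libraries were the lowest of the 12, and all La libraries lay above all Ha libraries. It was 2.45-fold higher in Hb than in Ha (log2 fold change 1.29 ± 0.25 SE, edgeR adjusted p = 0.00293) and 2.27-fold higher in La than in Ha (log2 fold change 1.18 ± 0.17 SE, edgeR adjusted p = 0.00412). In Landrace the log2 fold change with age was 0.47 ± 0.14 SE (edgeR adjusted p = 0.0168), under the fold threshold, and the difference between the breeds in the change with age did not pass the test (interaction -0.84 ± 0.31 SE, edgeR adjusted p = 0.12). The Hezuo call was lost with upper-quartile factors (0.98, or 1.32 relative to the median of all genes), on log2(FPKM + 1) (0.73, or 1.0), on log2(FPKM + 0.1) (0.78, or 1.25) and without Hb replicate 2 (0.99).

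**Figure D1:**
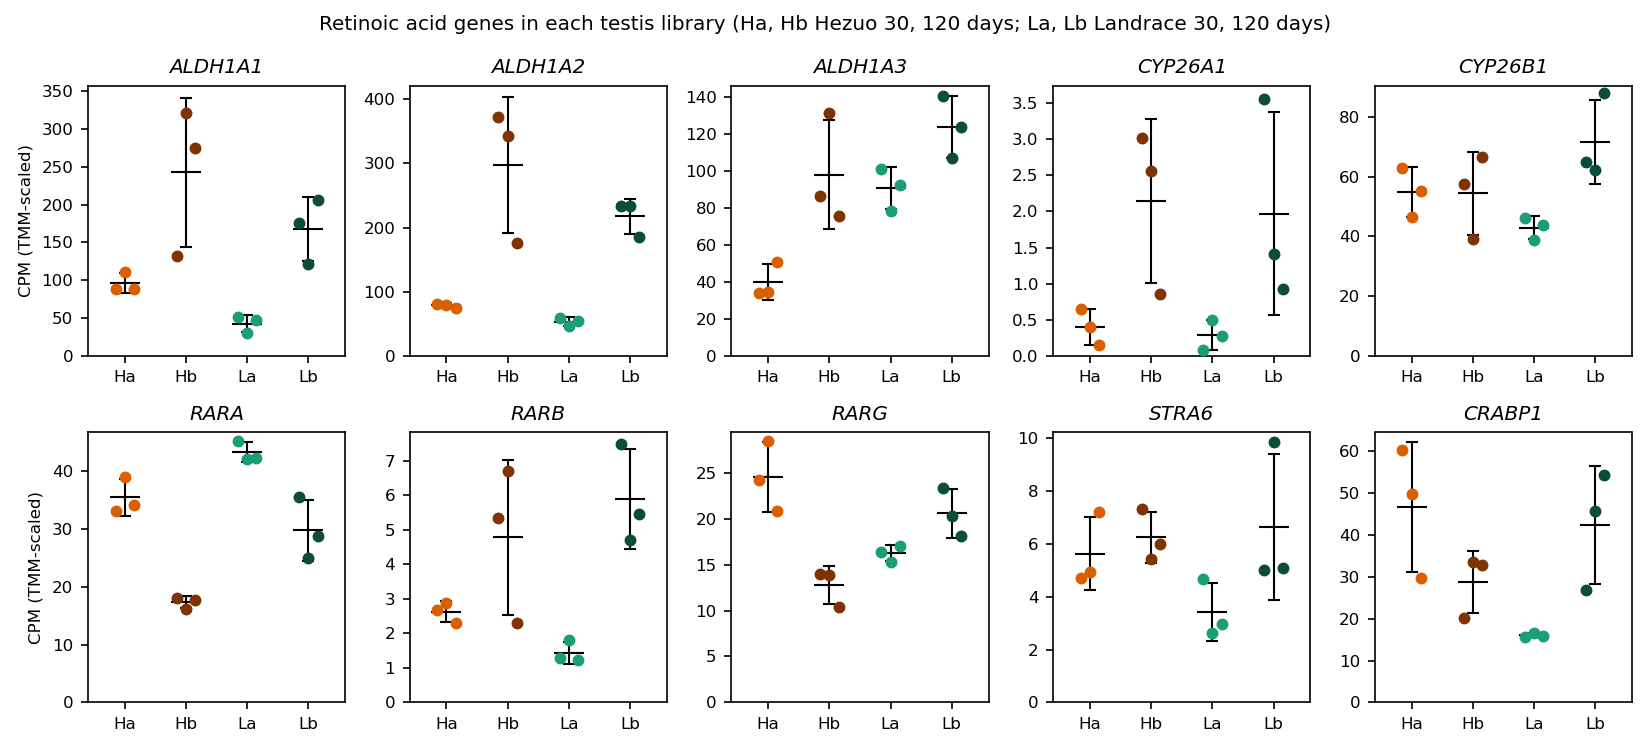
Each point is 1 library, with its CPM (TMM-scaled, linear axis from 0) on the y axis and its group on the x axis, and the bars give the mean and SD of 3 libraries. ALDH1A1 and ALDH1A2 lay higher in both 120-day groups than in the 30-day group of the same breed, RARA lay lower, and CRABP1 lay at 15.7 to 16.5 CPM in all La libraries.

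Of the hydroxylases that inactivate retinoic acid, CYP26A1 (chromosome 14 from 104561394 to 104567099) was rare, with 2 to 77 estimated counts per library. It was measured at 0.652, 0.402 and 0.155 CPM in Ha, 3.01, 2.55 and 0.857 in Hb, 0.0848, 0.502 and 0.278 in La and 3.56, 1.41 and 0.924 in Lb. The 120-day libraries lay above the 30-day libraries in each breed, and the breeds overlapped at both ages. CYP26A1 was 5.28-fold higher in Hb (log2 fold change 2.40 ± 0.67 SE, edgeR adjusted p = 0.0142) and 6.91-fold higher in Lb (log2 fold change 2.79 ± 0.70 SE, edgeR adjusted p = 0.00717), with the widest standard errors among the 10 genes. On log2(FPKM + 1), which understates changes of rare genes, limma called it in neither breed (0.58 and 0.59, or 0.85 and 0.75 relative to the median of all genes).

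CYP26B1 (chromosome 3 from 70573551 to 70593416) is known for keeping retinoic acid from germ cells of the fetal testis. It was measured at 63.0, 46.5 and 55.2 CPM in Ha, 57.4, 39.2 and 66.7 in Hb, 46.4, 38.8 and 43.7 in La and 64.9, 62.2 and 88.0 in Lb. Ha and Hb overlapped, while all Lb libraries lay above all La libraries. It was called in none of the 4 comparisons by edgeR or in any alternative with the fold threshold, with a log2 fold change of -0.01 ± 0.22 SE in Ha vs Hb (edgeR adjusted p = 0.962) and 0.76 ± 0.17 SE in La vs Lb (edgeR adjusted p = 0.00342). The latter passed the adjusted p and not the fold threshold, and the interaction was 0.75 ± 0.28 SE, edgeR adjusted p = 0.133.

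Among the receptors, RARA (chromosome 12 from 22047449 to 22085759) was measured at 33.2, 39.1 and 34.2 CPM in Ha, 18.1, 16.2 and 17.7 in Hb, 45.3, 42.2 and 42.4 in La and 35.5, 25.0 and 28.8 in Lb. The Hb libraries were the lowest of the 12 and lay close together, and no 2 groups overlapped within a breed or within an age. RARA was 2.05-fold lower in Hb than in Ha (log2 fold change -1.03 ± 0.15 SE, edgeR adjusted p = 0.000634), a value near the threshold that fell short of a log2 fold change of 1 with DESeq2 (-0.98), with RLE factors (-0.98) and without Ha replicate 2 (-0.97). In Landrace the log2 fold change was -0.52 ± 0.15 SE (edgeR adjusted p = 0.013), and the interaction was 0.49 ± 0.20 SE, edgeR adjusted p = 0.155. At 120 days RARA was at 0.82 ± 0.18 SE in Lb over Hb (edgeR adjusted p = 0.0446), under the fold threshold.

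RARB (chromosome 13 from 12336387 to 12507688), a receptor whose own gene is a known target of retinoic acid, was measured at 2.69, 2.89 and 2.29 CPM in Ha, 5.33, 6.68 and 2.31 in Hb, 1.27, 1.81 and 1.23 in La and 7.49, 4.71 and 5.44 in Lb. Lb lay above La in every library, while Hb replicate 3 fell within the range of Ha and the other Hb libraries lay above it. RARB was 4.14-fold higher in Lb than in La (log2 fold change 2.05 ± 0.31 SE, edgeR adjusted p = 0.000422). In Hezuo it was not called (log2 fold change 0.87 ± 0.41 SE, edgeR adjusted p = 0.0976), but it was called without Hb replicate 3, at 1.20. With each library left out in turn, the Hezuo value ran from 0.51 to 1.20. The interaction did not pass the test (1.16 ± 0.52 SE, edgeR adjusted p = 0.197). On log2(FPKM + 1), which understates changes of low levels, limma gave 0.78 in La vs Lb (0.94 relative to the median of all genes) with no call.

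The noncoding RARG transcripts (chromosome 5 from 18436267 to 18458625) were measured together at 24.2, 28.5 and 20.8 CPM in Ha, 14, 13.8 and 10.4 in Hb, 16.4, 15.3 and 17 in La and 23.4, 20.3 and 18.1 in Lb. Of their counts over the 12 libraries, 53.4% came from transcript variant X6 and 28.7% from variant X3. Hb was the lowest group and Ha the highest, and no 2 groups overlapped within a breed or within an age. The log2 fold change was -0.95 ± 0.20 SE in Ha vs Hb (edgeR adjusted p = 0.00392), short of the fold threshold, and 0.35 ± 0.15 SE in La vs Lb (edgeR adjusted p = 0.0654). The interaction was called (1.29 ± 0.24 SE, edgeR adjusted p = 0.0132) and stayed called under every alternative that was run. In Ha vs Hb they were called lower with library size alone (-1.25), with upper-quartile factors (-1.26), on log2(FPKM + 1) (-1.16) and on log2(FPKM + 0.1) (-1.40), which relative to the median of all genes were -0.93, -0.93, -0.88 and -0.93. They were also called lower there without Ha replicate 3 (-1.06), Hb replicate 1 (-1.01) or Hb replicate 2 (-1.04).

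STRA6 (chromosome 7 from 59317930 to 59347274), the membrane receptor that takes up retinol from its plasma carrier, was measured at 4.72, 4.94 and 7.22 CPM in Ha, 7.30, 5.43 and 6.0 in Hb, 4.67, 2.61 and 2.98 in La and 4.99, 9.84 and 5.08 in Lb. Ha and Hb overlapped, all La libraries lay below all Ha libraries and all Lb libraries, and Lb replicate 2 was the highest of the 12. By edgeR it was called in none of the 4 comparisons, and its log2 fold change in Ha vs Hb was 0.15 ± 0.28 SE with TMM and -0.16 with library size alone (0.16 relative to the median of all genes). In La vs Lb (log2 fold change 0.97 ± 0.36 SE, edgeR adjusted p = 0.0383) the value lay just under the fold threshold. It passed the threshold by a narrow margin with DESeq2, and also without La replicate 1 (1.25), Lb replicate 1 (1.14) or Lb replicate 3 (1.12). With each library left out in turn, this value ran from 0.57 to 1.25.

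CRABP1 (chromosome 7 from 47602316 to 47608865), a cytosolic protein that binds retinoic acid, showed the change with age that differed most between the breeds among the 8. It was measured at 60.3, 49.9 and 29.7 CPM in Ha, 20.2, 33.5 and 32.8 in Hb, 15.7, 16.5 and 15.9 in La and 26.9, 45.8 and 54.3 in Lb. The La libraries lay within a narrow range below all others, the Lb libraries all lay above La, and Ha and Hb overlapped through Ha replicate 3. CRABP1 was 2.67-fold higher in Lb than in La (log2 fold change 1.42 ± 0.25 SE, edgeR adjusted p = 0.000975) and 2.91-fold lower in La than in Ha (log2 fold change -1.54 ± 0.24 SE, edgeR adjusted p = 0.00512). In Hezuo the log2 fold change was negative and not called (-0.69 ± 0.30 SE, edgeR adjusted p = 0.0725). The interaction was called (2.09 ± 0.42 SE, edgeR adjusted p = 0.0169) and stayed called under every alternative that was run. On FPKM all Hb libraries lay below all Ha libraries (21.4, 41.1 and 36.9 against 96.3, 80.0 and 47.3 FPKM), and limma on log2(FPKM + 1) called CRABP1 lower in Hb (-1.14, or -0.86 relative to the median of all genes), as did limma on log2(FPKM + 0.1) (-1.16, or -0.69).

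**Figure D2:**
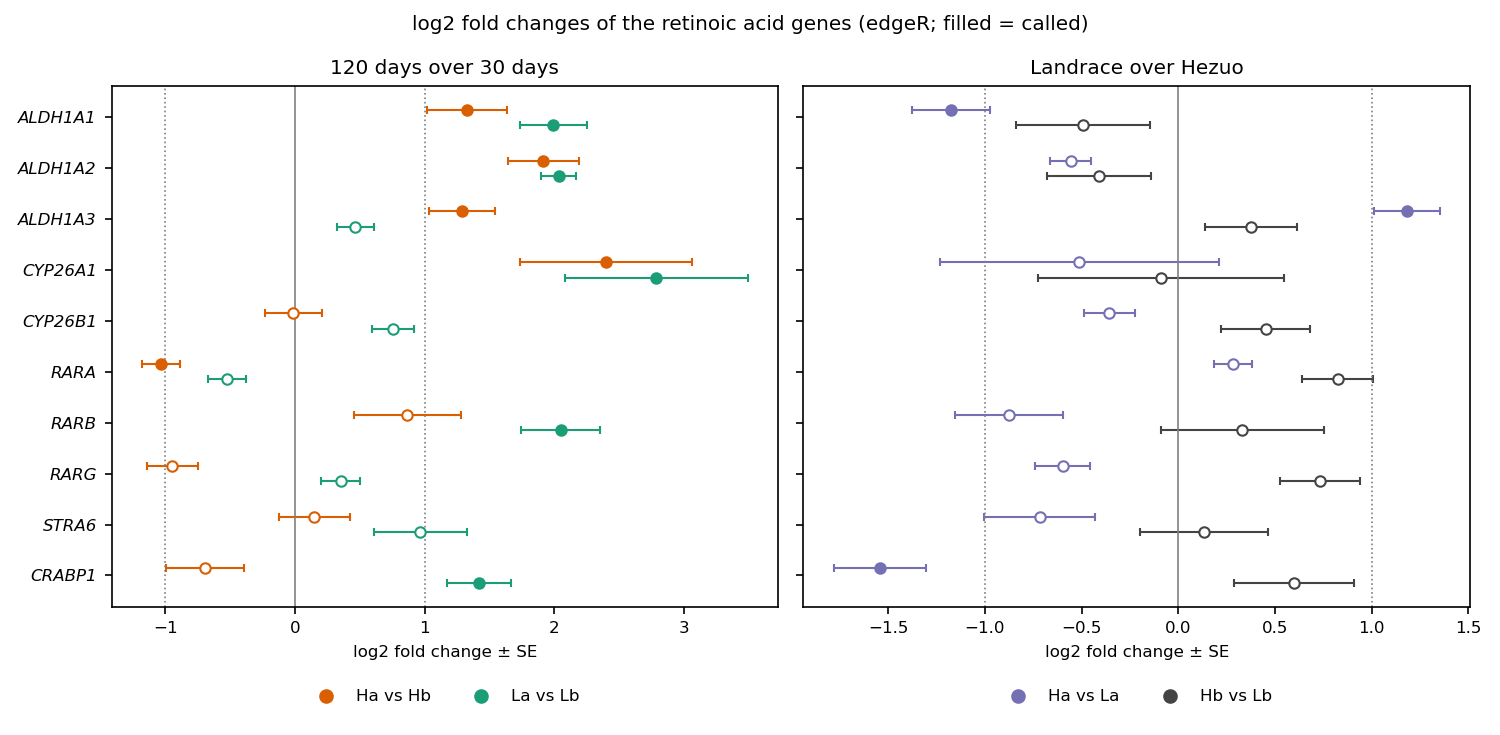
The x axes give log2 fold changes with their SE from edgeR and the y axis the 10 genes, at 120 over 30 days on the left and in Landrace over Hezuo on the right. Filled points were called, open points were not, and dotted lines mark a log2 fold change of 1 in either direction, which CRABP1 passed downward in Ha vs La and upward in La vs Lb.

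Per length of transcript, the order of the mean FPKM levels over the 12 libraries was CRABP1 (46.8 FPKM), ALDH1A1 (44.7 FPKM), ALDH1A2 (31.5 FPKM), ALDH1A3 (17.4 FPKM), CYP26B1 (7.55 FPKM), RARA (7.31 FPKM), RARG (4.83 FPKM), STRA6 (1.29 FPKM), RARB (0.984 FPKM) and CYP26A1 (0.399 FPKM). In FPKM, neighbours in this order often overlapped. CRABP1 and ALDH1A1 overlapped in Hb and Lb, but CRABP1 was higher in every library of Ha (74.5 ± 25.0 against 38.4 ± 5.39 FPKM, SD, n = 3) and of La (25.1 ± 0.725 against 16.6 ± 4.45 FPKM). In Hb, ALDH1A1 was the higher in every library (70.1 ± 32.2 against 33.1 ± 10.4 FPKM), while in Lb the higher gene differed between libraries. ALDH1A1 and ALDH1A2 overlapped in Hb, La and Lb. ALDH1A2 was above ALDH1A3 in every library of Ha, Hb and Lb and below it in every library of La (12.7 ± 1.54 against 20.7 ± 2.54 FPKM). CYP26B1 overlapped with ALDH1A3 and with RARA in Ha. In Hb, CYP26B1 lay above RARA (6.01 ± 1.32 against 3.17 ± 0.0586 FPKM), as it did in Lb, while in La it lay below RARA (6.57 ± 0.564 against 10.9 ± 0.335 FPKM). RARA and RARG overlapped in all groups but La, although within each library RARA was above RARG. RARG lay above STRA6 in every library, STRA6 and RARB overlapped in Hb and Lb, and RARB and CYP26A1 did so in the same groups.

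The share of each enzyme in the FPKM of its family differed between the groups. ALDH1A3 made up 41.6% ± 2.23 (SD, n = 3) of the summed FPKM of the 3 ALDH1A genes in La, against 14% ± 3.66 in Ha, 11.8% ± 1.23 in Hb and 19.4% ± 1.02 in Lb. ALDH1A1 was the leading share in Ha, at 57.2% ± 3.94, while in Hb and Lb the leading gene differed between libraries, with 55.7% for ALDH1A2 in Hb replicate 1 and 64.3% for ALDH1A1 in Hb replicate 3. The summed FPKM of the 3 genes was 66.9 ± 4.88 in Ha, 139 ± 41.8 in Hb, 50.05 ± 8.49 in La and 119 ± 17 in Lb.

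Among the CYP26 genes, with CYP26C1 found by its description, CYP26B1 held from 86.3% ± 6.33 of the summed FPKM in Hb to 97.7% ± 1.90 in La, and CYP26C1 from 0.663% ± 0.644 in La to 3.21% ± 1.21 in Hb. CYP26A1 held 1.17% ± 0.521 in Ha, 10.5% ± 6.89 in Hb, 1.65% ± 1.39 in La and 7.48% ± 5.67 in Lb, and its share was 13% and 15.8% in Hb replicates 1 and 2 and 13.8% in Lb replicate 1. Of the receptor FPKM, in which RARG is the noncoding transcripts, RARA held 53.2% ± 2.18 in Ha, 46.2% ± 7.31 in Hb, 68.1% ± 1.63 in La and 48.9% ± 2.64 in Lb. RARB held 4.95% ± 0.354 in Ha and 2.87% ± 0.699 in La, against 15.4% ± 6.14 in Hb and 12.1% ± 1.03 in Lb, with no overlap between the ages of a breed. These shares were described without a test.

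**Figure D3:**
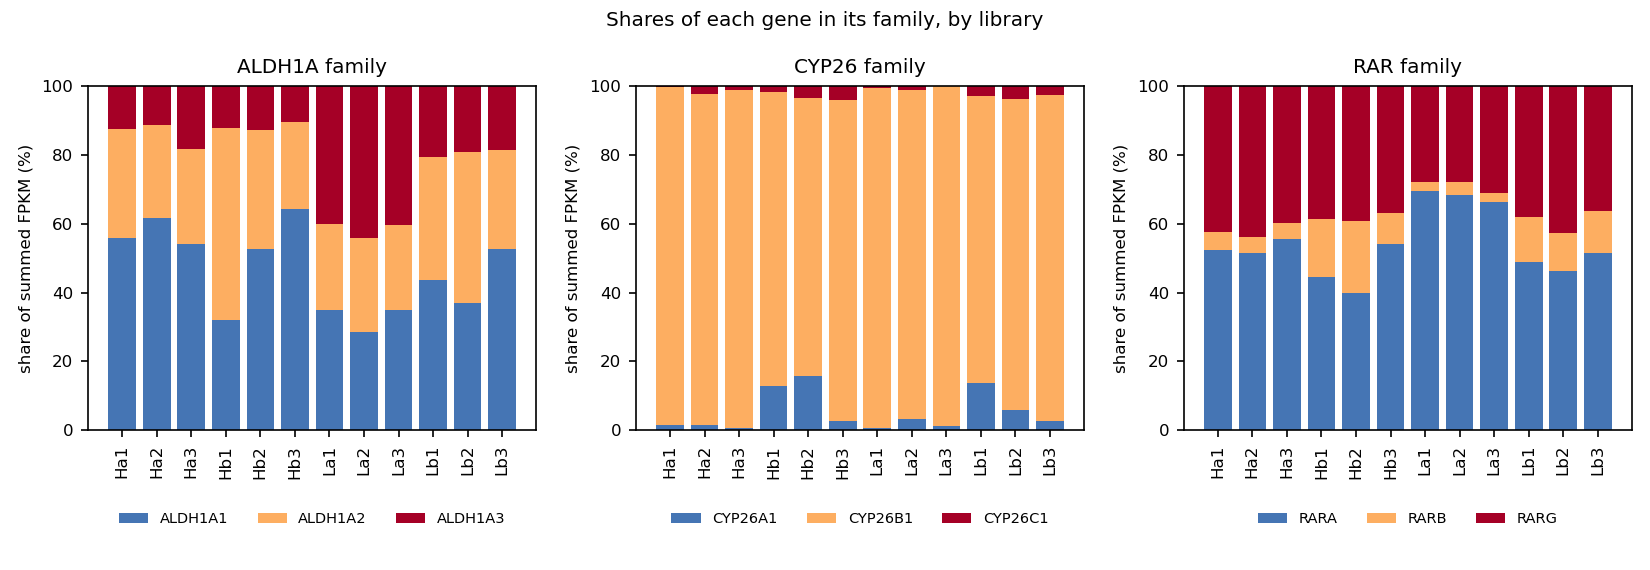
Each bar is 1 library on the x axis, split by the share of each gene in the summed FPKM of its family in percent on the y axis, which starts at 0. ALDH1A3 took 41.6% on average in La and 14% in Ha, CYP26B1 took most of its family in every library, and the RARG bars are noncoding transcripts.

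Correlations of log2 CPM between the 10 genes are given as a description without a test, within each age, over 6 libraries that hold both breeds. At 30 days, ALDH1A1 and ALDH1A2 ran together (Pearson's r = 0.982), and ALDH1A3 ran against CRABP1 (-0.984), which follows the breed differences above. At 120 days the same pairs had r = -0.162 and 0.290. CYP26A1 and RARB had r = 0.553 at 30 days and 0.736 at 120 days, where Hb replicate 3 had the lowest level of both genes among the Hb libraries. RARA and the RARG transcripts went opposite ways at 30 days (r = -0.650) and the same way at 120 days (r = 0.876).

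The most alike gene outside the 10, by Pearson's r of log2 CPM over the 12 libraries among 13921 genes with a symbol, was taken for each. For ALDH1A1 it was AKTIP (r = 0.967), for ALDH1A2 the autophagy protease ATG4D (0.984), for ALDH1A3 the adaptor SIT1 (0.941) and for CYP26A1 the integrator subunit INTS3 (0.937). For CYP26B1 it was CCDC85A (0.863), for RARA the interferon-inducible GBP1 (0.983), for RARB SEC23IP (0.947) and for the RARG transcripts the protease cathepsin K, CTSK (0.964). For STRA6 it was TRAP1 (0.955) and for CRABP1 TMEM150A (0.966). Spearman's rho of these pairs ran from 0.867 (ALDH1A3) to 0.979 (ALDH1A2). The 12 libraries fall into 2 ages and 2 breeds, and within an age Pearson's r over 6 libraries ran from 0.789 (RARA) to 0.986 (CRABP1) at 30 days and from 0.771 (CYP26B1) to 0.992 (RARA) at 120 days. The values are a description without a test.

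The other genes that handle or answer to retinoids were listed by role, 59 symbols of which 55 were found, AKR1C1 in 2 entries, and STRA6L, ADH7, CYP26C1 and MEIOSIN were not found under their symbols. In Ha vs Hb, 6 of 44 tested were called higher and 17 lower (median log2 fold change -0.90). In La vs Lb, 8 of 43 were called higher and 19 lower (median -0.52). Between the breeds, 1 of 44 was called higher and 7 lower in Ha vs La (median -0.17), and 1 of 40 higher and 1 lower in Hb vs Lb (median 0.26), where leaving out 1 library in turn gave 0 to 6 higher and 0 to 2 lower. Of all genes tested, 28.2% were called higher and 23.2% lower with age in Hezuo, and 27.5% higher and 20.1% lower with age in Landrace. Between the breeds these shares were 3.6% higher and 4.01% lower at 30 days, and 2.65% higher and 1.2% lower at 120 days. The counts of the single roles below are to be read beside these shares, and several lie near them. The listed genes thus had a lower median than all genes in both age comparisons, while the 8 genes above had a higher one.

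Of the genes for storage, uptake and carriers, 2 of 9 tested were called higher and 3 lower in Ha vs Hb, and 2 higher and 6 lower in La vs Lb. LRAT, which esterifies retinol for storage, was at 2.30, 1.53 and 2.1 CPM in Ha and 59.9, 62.6 and 50.8 in Hb, and at 4.24, 2.61 and 2.94 in La and 51.6, 43.2 and 49.2 in Lb. Its rise was among the steepest of the listed genes, with log2 fold changes of 4.87 ± 0.22 SE, edgeR adjusted p = 3.86e-06 in Hezuo and 3.89 ± 0.21 SE, edgeR adjusted p = 1.09e-06 in Landrace, and each 120-day library stood above each 30-day library. DGAT1, which esterifies diacylglycerol and also retinol, rose from 35.4 ± 1.68 to 155 ± 53.3 CPM (SD, n = 3) in Hezuo and from 28.5 ± 0.665 to 99.9 ± 12.4 CPM in Landrace. FABP5, a fatty acid carrier that also binds retinoic acid, fell from 13.5 ± 1.86 to 1.72 ± 0.237 CPM in Hezuo and from 13.7 ± 2.29 to 4.65 ± 2.50 CPM in Landrace.

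RLBP1, a carrier of retinal, and RBP5 were called lower in La vs Lb (log2 fold changes -1.44 and -2.03) and not in Ha vs Hb (-0.59 and -1.51), and their interactions of -0.87 and -0.54 were not called. The Hezuo values rest on single libraries. RLBP1 was at 1.74, 11.4 and 6.46 CPM in Hb, and its log2 fold change was -0.13 without Hb replicate 1 and -1.28 without Hb replicate 2. RBP5, at 42.3, 11.6 and 11 CPM in Ha and 2.26, 16.3 and 4.15 in Hb, had -0.58 without Ha replicate 1 and was called at -2.78 without Hb replicate 2. The lipase LPL was lower in La than in Ha (log2 fold change -1.06 ± 0.15 SE, edgeR adjusted p = 0.00362), a call lost without Ha replicate 3 (-0.91) or La replicate 1 (-0.96). CRABP2, the second retinoic acid carrier, was near the limit of counting, at 1.53, 0.843 and 1.48 CPM in Ha, 0.174, 0 and 0.132 in Hb, 0.382, 0.0502 and 0.0795 in La and 0.0925, 0.282 and 0.103 in Lb. It had 99 counts in Ha and 5 in Hb, a ratio of 13.9 (95% exact counting interval 5.77 to 43.8, counting error alone), and it was also called lower in La than in Ha, though not without Ha replicate 1, La replicate 2 or La replicate 3.

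Of the genes that convert retinol and retinal, 1 of 14 tested was called higher and 6 lower in Ha vs Hb, and 2 of 13 higher and 7 lower in La vs Lb. DHRS4, outside the rule by which genes were named, was the most abundant of the list. It was at 7037 ± 353 CPM in Ha, 2052, 35.3 and 42.3 in Hb, 5495 ± 964 in La and 1690 ± 1062 in Lb. The retinol dehydrogenase RDH11 fell from 1048 ± 38.6 to 290.3 ± 179 CPM in Hezuo and from 1631 ± 286 to 538 ± 127 CPM in Landrace. RETSAT, which saturates retinol, fell from 299 ± 44.6 to 86.5 ± 64.4 and from 259 ± 8.20 to 116 ± 29.1 CPM, and the alcohol dehydrogenase ADH5 from 113 ± 8.31 to 35.9 ± 7.16 and from 107 ± 5.80 to 49.7 ± 3.74 CPM. Hb replicate 1 was the high library of its group for RDH11 (496, 207 and 168 CPM in Hb) and RETSAT (161, 51.8 and 46.9). Without it their log2 fold changes in Hezuo went from -1.85 to -2.48 and from -1.79 to -2.59, and both were called higher in Lb than in Hb (1.54 and 1.25), which they were not with it. The interaction of RETSAT was then called too (1.46, against 0.63 with all libraries). The RETSAT fall in Landrace was not called without Lb replicate 3 (-0.98). The short-chain dehydrogenase DHRS9 also fell in both breeds (log2 fold changes -2.80 and -1.94), at levels of 1.58 ± 0.672 CPM in Ha. BCO1, which cleaves beta-carotene to retinal, rose in both (log2 fold changes 1.52 and 2.0), and DHRS3, which reduces retinal back to retinol, was called higher in La vs Lb (1.25) and stood at 0.86 in Ha vs Hb, with an interaction of 0.39 that was not called. That Hezuo value rests on Hb replicate 1, since DHRS3 was at 19.1, 23.5 and 18.7 CPM in Ha and 70.8, 21.2 and 19.0 in Hb. Without it the log2 fold change was -0.019, and the interaction was called, at 1.29.

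RDH16 and AKR1C1 were high in the Hezuo libraries of 30 days. RDH16 was at 213, 155 and 168 CPM in Ha, 108, 0 and 1.52 in Hb, 0.0848, 0 and 0.119 in La and 0, 0.282 and 0 in Lb, so that of the 120-day Hezuo libraries replicate 1, the library rich in Leydig cell genes, was the one with a high level. Ha held 13757 counts and La 5, a ratio of 2462 (95% exact counting interval 1055 to 7584, counting error alone). AKR1C1, an aldo-keto reductase that acts on steroids and retinal, was at 417, 169 and 635 CPM in Ha, 0, 0.464 and 1.25 in Hb, 2.33, 1.41 and 1.35 in La and 0.185, 0.424 and 0.308 in Lb in its more abundant entry. It was called lower in Hb than in Ha (log2 fold change -9.53 ± 0.91 SE, edgeR adjusted p = 9.33e-05) and in La than in Ha (-7.90 ± 0.58 SE, edgeR adjusted p = 0.00035). Its second entry held at most 0.879 CPM in any library, and a shift of reads between the entries was not tested. The RDH16 values are uncertain, because 2 other genes of the table, LOC100512656 and LOC100626199, are also described as retinol dehydrogenase 16. LOC100512656 was at 11.8, 10.8 and 10.4 CPM in Ha, 11.9, 78.9 and 0.791 in Hb, 123, 72.9 and 72.8 in La and 66.0, 111 and 68.1 in Lb, high in the libraries low in RDH16 except Hb replicate 3, which was low in both. LOC100626199 was at 131, 125 and 121 CPM in Ha, 224, 236 and 45.1 in Hb, 367, 232 and 206 in La and 166, 280 and 170 in Lb. Hb replicate 1, high in RDH16, was thus not low in LOC100626199. Whether an allele or mapping difference between the breeds lowers the counts of RDH16 or AKR1C1 in Landrace was not tested.

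Of the nuclear partners and cofactors, 1 of 12 was called higher and 3 lower in Ha vs Hb, and 2 higher and 2 lower in La vs Lb. RXRA, the partner of the RAR proteins, fell from 108 ± 6.99 to 39.4 ± 17.5 CPM in Hezuo (log2 fold change -1.46) and stood at -0.92 in La vs Lb, under the fold threshold, with an interaction of 0.52 that was not called. RXRG, at 15.2, 18.8 and 18.6 CPM in Ha, 23.8, 34.6 and 18.7 in Hb, 3.69, 10.9 and 8.70 in La and 33.1, 39.7 and 21.4 in Lb, was called higher in Lb than in La and lower in La than in Ha (log2 fold change -1.18 ± 0.34 SE, edgeR adjusted p = 0.045), the latter call being lost without any 1 of the Ha libraries, La replicate 1 or La replicate 3. It stood at 0.55 in Ha vs Hb, not called, and its interaction of 1.46 was not called. RXRG thus had its lowest levels in La, as ALDH1A1, ALDH1A2, RARB, STRA6 and CRABP1 did. CYP26A1 and CYP26B1 had their lowest mean there, while ALDH1A3, RARA and the RARG transcripts did not. NRIP1 fell in both breeds (log2 fold changes -1.48 and -1.49), the corepressor NCOR1 was called higher in Ha vs Hb (1.51) and the coactivator NCOA3 in La vs Lb (1.12, not called without Lb replicate 2), with interactions of -0.72 and 0.14 that were not called.

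Of the genes known to respond to retinoic acid, 2 of 9 tested were called higher and 5 lower in Ha vs Hb, and 2 higher and 4 lower in La vs Lb, while HOXB1 and CDX1 had no count in any library. The pair that rose in both breeds was that of meiosis. STRA8 was at 0.230, 0.763 and 0.272 CPM in Ha, 1.80, 2.41 and 2.04 in Hb, 0.424, 0 and 0.119 in La and 3.65, 6.87 and 2.05 in Lb (log2 fold changes 2.30 ± 0.54 SE, edgeR adjusted p = 0.00656, and 4.46 ± 0.82 SE, edgeR adjusted p = 0.00136). The meiotic cohesin REC8 rose from 3.91 ± 2.26 to 121 ± 24.8 CPM and from 1.65 ± 0.620 to 118 ± 27.5 CPM. GATA6, SALL4 and RARRES2 fell in both breeds, with GATA6 going from 98.3 ± 16.6 to 24.0 ± 7.80 CPM in Hezuo and from 183 ± 14.5 to 28.5 ± 3.14 CPM in Landrace. In La vs Lb, SALL4 was not called without La replicate 1, nor RARRES2 without Lb replicate 1.

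Some of these responders changed with age differently in the breeds. TGM2 fell from 267 ± 43.2 to 61.2 ± 16.5 CPM in Hezuo and stood at 171 ± 7.26 and 118 ± 36.7 CPM in La and Lb (interaction 1.59 ± 0.33 SE, edgeR adjusted p = 0.0185). RARRES1 was highest in La, at 93.5 ± 13.6 CPM against 35.6 ± 6.26, 29.4 ± 4.84 and 32.0 ± 5.15 CPM in Ha, Hb and Lb (interaction -1.27 ± 0.26 SE, edgeR adjusted p = 0.0173). RARRES2 fell more in Hezuo, from 34.1 ± 3.79 to 4.15 ± 1.35 CPM, than in Landrace, from 41.2 ± 2.43 to 17.4 ± 6.36 CPM (interaction 1.78 ± 0.39 SE, edgeR adjusted p = 0.0219). PDK4 was at 98.8 ± 19.2, 57.1 ± 15.1, 31.5 ± 6.06 and 45.9 ± 2.70 CPM in Ha, Hb, La and Lb (interaction 1.33 ± 0.30 SE, edgeR adjusted p = 0.0252) and was called lower in La than in Ha. The interaction of RARRES2 was not called without Ha replicate 1, Ha replicate 2, La replicate 2 or La replicate 3, and that of PDK4 without Ha replicate 1, Ha replicate 2, Hb replicate 3, La replicate 1 or La replicate 2.

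Within 10 kb of the 10 genes lay 5 transcripts of the lncRNA table, 1 near ALDH1A1, 2 near ALDH1A2 and 2 near RARG, of which those near ALDH1A2 were tested, MSTRG.763.1 in La vs Lb but not in Ha vs Hb, where it had too few counts, and MSTRG.764.1 in both. MSTRG.763.1 (chromosome 1 from 113946522 to 113952731) lies inside the ALDH1A2 gene, and the assembly labels it as intronic. It had no count in any 30-day library, 3.19, 1.07 and 0.264 CPM in Hb and 0.786, 1.51 and 2.05 in Lb, so that it was at least 12.8-fold higher in Hb and at least 10.9-fold higher in Lb against 3 counts per library. Without Hb replicate 1 the limit in Hb was 5.67-fold, on 27 of 82 counts. MSTRG.764.1 (from 114040975 to 114197944) starts 3916 bases beyond ALDH1A2. The assembly labels it as sharing a splice junction with an annotated transcript, whose gene was not determined. It was at 0.0767, 0 and 0.0776 CPM in Ha, 2.90, 1.81 and 0.989 in Hb, 0.0424, 0.0502 and 0.199 in La and 2.68, 2.21 and 2.0 in Lb. With 104 counts in Hb and 4 in Ha the ratio was 37.0 (95% exact counting interval 14 to 138, counting error alone). Both lncRNAs, like ALDH1A2, were thus higher in every 120-day library than in every 30-day library. MSTRG.764.1 was called in both age comparisons and MSTRG.763.1 in La vs Lb, where 54.5% (Ha vs Hb) and 57.3% (La vs Lb) of all lncRNAs tested were called.

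Marker genes of the cell types of the testis differed strongly between the ages. The levels of marker genes are given beside the values above, and their part in these results was not tested. Of the spermatocyte markers, 8 of 8 were called higher with age in Hezuo and 8 of 8 in Landrace, with a summed level of 31.7, 35.6 and 19.9 CPM in Ha, 783, 676 and 651 in Hb, 16.1, 14.1 and 12.7 in La and 502, 485 and 494 in Lb. PIWIL1 was the most abundant of them, and 4 of 8 were called lower in La than in Ha. Of the spermatid markers, 9 of 9 tested rose in each breed, with a summed level of 4.99, 5.54 and 6.48 CPM in Ha, 6522, 5787 and 8229.7 in Hb, 8.86, 7.73 and 4.41 in La and 4192, 3451 and 3153 in Lb, and the protamine PRM1 was the most abundant. The spermatogonial list, led by DDX4, had 2 of 10 higher and 6 lower with age in Hezuo and 3 of 10 higher and 5 lower in Landrace, with a summed level of 386, 389 and 331 CPM in Ha, 843, 811 and 825 in Hb, 221, 224 and 222 in La and 669, 598 and 639 in Lb. The rise of this sum was mostly that of DDX4 alone, which was at 19.8, 22.7 and 19.2 CPM in Ha, 629, 511 and 569.7 in Hb, 11.9, 12.2 and 15.3 in La and 416, 366 and 390.1 in Lb. ALDH1A1, ALDH1A2, CYP26A1, LRAT, STRA8 and REC8 were higher in the same 120-day groups in which the meiotic and spermatid lists were high.

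Somatic cell markers mostly fell with age. The Sertoli cell list, led by INHA, had 4 of 8 lower with age in Hezuo and 4 of 8 lower in Landrace, with a summed level of 1269, 1209 and 1664 CPM in Ha, 405, 579 and 467 in Hb, 2641, 3212 and 2914 in La and 604, 753 and 640.3 in Lb, and 3 of 8 were called higher in La than in Ha. The fall of this sum was mostly that of INHA and AMH. The mean of INHA went from 511 to 126 CPM in Hezuo and from 1455 to 172 CPM in Landrace. That of AMH went from 176 to 5.85 CPM in Hezuo and from 687 to 8.30 CPM in Landrace. The Leydig cell list, led by INSL3 in mean FPKM and by CYP17A1 in mean CPM, had 4 of 7 lower with age in Hezuo and 5 of 7 lower in Landrace, with a summed level of 10083, 9583 and 8748 CPM in Ha, 4065, 331 and 268 in Hb, 13672, 9323 and 11208 in La and 4921, 7415 and 3085 in Lb. The peritubular and stromal list, led by COL3A1, had 8 of 10 lower with age in Hezuo and 1 of 10 higher and 5 lower in Landrace, with a summed level of 4729.7, 4585 and 4508 CPM in Ha, 607, 354 and 255 in Hb, 6906, 6179 and 7611 in La and 3083, 3007 and 2570.0 in Lb, and 5 of 10 were called higher in Lb than in Hb. Every Lb library thus had more of the summed stromal genes than every Hb library.

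The endothelial list, led by VWF, had 5 of 5 lower with age in Hezuo and 3 of 5 lower in Landrace, with a summed level of 669, 681 and 616 CPM in Ha, 173, 305 and 186 in Hb, 795, 627 and 756 in La and 316, 497 and 278 in Lb. The macrophage list, led by CSF1R, had 5 of 5 lower with age in Hezuo and 4 of 5 lower in Landrace, with a summed level of 124, 101 and 106 CPM in Ha, 17.4, 20.1 and 10.7 in Hb, 122, 107 and 115 in La and 21.3, 37.8 and 35.9 in Lb. Both lists had their lowest mean in Hb. For the rete testis and epididymal epithelium, PAX8 and KRT7 were not found, KRT19 was the most abundant and the 1 marker tested in Ha vs Hb, where it was called lower, with a summed level of 7.71, 6.87 and 12.2 CPM in Ha, 5.10, 4.09 and 2.77 in Hb, 6.15, 8.19 and 5.68 in La and 2.36, 6.35 and 6.67 in Lb. No marker of the cell type lists with a row was at 0 in all 12 libraries. A positive interaction of breed and age was called for 5 of 10 peritubular and stromal markers (median 1.49), 1 of 5 endothelial, 1 of 5 macrophage and 1 of 10 spermatogonial markers, and a negative one for 2 of 10 spermatid markers (median -1.42). No interaction was called among the spermatocyte, Sertoli cell, Leydig cell and rete testis markers. Of all genes, 3.51% had a called positive and 1.62% a called negative interaction.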

How the data were processed

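Whole testis RNA of 12 boars was measured as 12 libraries with no pooling. The authors deposited estimated counts, not normalized and with decimals, and FPKM values rounded to 2 decimals, for coding genes and for lncRNA transcripts. According to the processing notes, the authors filtered reads with fastp 0.18.0, removed ribosomal reads with Bowtie2 2.2.8, mapped the rest to Sscrofa11.1 with HISAT2 2.1.0 and assembled transcripts with StringTie 1.3.4. The tool that made the counts was not stated. Exon positions of assembled lncRNAs came from a deposited file, and gene positions from the RefSeq annotation of Sscrofa11.1. All deposited columns were matched to a library.

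Counts were rounded, filtered with filterByExpr (minimum count 10), scaled with TMM factors and tested with the edgeR 4.0.16 quasi-likelihood test in R 4.3.3 over the whole coding table, for each pair of groups on its 6 libraries and for the interaction on all 12, with Benjamini-Hochberg adjustment over all genes tested. LncRNAs were tested in the same way on their own table with the library sizes and factors of the coding table. SE is the standard error of the log2 fold change and SD that of 3 libraries. Alternatives were DESeq2 1.42.0, limma 3.58.1 on log2(FPKM + 1) and log2(FPKM + 0.1), other scaling factors, other filters, no fold threshold, all 12 libraries in one fit, the replicate number as a block, and each library left out. Tables and plots were made with pandas 2.3.3, scipy 1.17.1, matplotlib 3.10.9 and numpy 2.4.6 under Python 3.11.15.

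The 10 genes and the lists of other retinoid genes and cell type markers were chosen with earlier results of these data known, so the lists were given no test. The lists were storage, uptake and carriers, retinol and retinal conversion, degradation (CYP26C1 alone), nuclear partners and cofactors, genes known to respond to retinoic acid, and markers of spermatogonia, spermatocytes, spermatids, Sertoli cells, Leydig cells, peritubular and stromal cells, endothelium, macrophages, and rete testis with epididymal epithelium. Named were all 10 genes, up to 8 genes per retinoid list that were called in any of the 4 comparisons with the smallest adjusted p, the most alike gene of each of the 10 (mean CPM of at least 1, log2 CPM with a prior count of 2), and the most abundant marker of each cell type by mean FPKM. The use of the RARG transcripts, of CYP26B1, CYP26C1 and the other retinol dehydrogenase 16 genes by description, and of Hb replicate 1 as a library that stands apart were chosen after the data were seen. Where all libraries of a group held at most 3 counts, folds were computed from summed counts, with 95% exact intervals, or against 3 counts per library where all were at 0. These intervals and floors cover counting error only. The coding totals per library ran from 17165519 to 23758931 counts.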

Additional observations from a re-analysis of the deposited data

Results flagged for a closer look

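A difference between the breeds in the change with age was found by the interaction term of edgeR for several retinoid genes. For RARG (the noncoding transcripts) it was 1.29 on the log2 scale, with a negative log2 fold change in Hezuo and a positive one in Landrace, neither of them called, and for CRABP1 it was 2.09, with a called rise in Landrace and none in Hezuo. Both values were called in all alternatives that were run. For AKR1C1 it was 7.07, where the level of the other 3 groups lay near 0 beside that of Ha, and it was not called without Lb replicate 2. It was -1.27 for RARRES1, 1.78 for RARRES2, 1.59 for TGM2 and 1.33 for PDK4. KIT, outside the rule by which genes were named and added after its values were seen, was at 1.3. Among the other retinoid genes, 6 of 46 entries tested had a called positive interaction, of which AKR1C1 makes 2, beside 3.51% of all genes, and 1 a negative one, beside 1.62%. With 1 library left out the count ran from 2 to 9, with 2 without Ha replicate 1, Ha replicate 2 or La replicate 2 and 3 without Hb replicate 3, La replicate 1 or La replicate 3. Of the peritubular and stromal markers, 5 of 10 had a called positive interaction too, and the part of the marker levels in these differences was not tested.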

How the results depend on the processing

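Of the 8 genes with a coding entry of their own, the count called higher in Ha vs Hb went from 4 to 1 with limma at log2(FPKM + 1), to 2 at log2(FPKM + 0.1) and to 3 with upper-quartile factors, and the count called lower from 1 to 0 with DESeq2, 0 with RLE factors and 2 and 2 on the FPKM scales. The calls over all genes moved too. From 4666 of 16548 higher they went to 2813, 3596 and 3967 in those settings, and from 3844 lower to 3682 with DESeq2, 3660 with RLE factors, and 3834 and 5737 on the FPKM scales. In La vs Lb the count called higher went from 5 to 3 on log2(FPKM + 1) and to 6 with DESeq2, while over all genes it went from 4574 of 16637 to 2918 and 4588. Without the fold threshold, the count called lower in La vs Lb and the count called higher in Hb vs Lb each went from 0 to 1 (RARA), the count called higher in La vs Lb from 5 to 7 (ALDH1A3 and STRA6 added) and the count called lower in Ha vs La from 2 to 3 (ALDH1A2 added), by the construction of that alternative, and the cause of the other changes was not tested. Leaving out 1 library in turn gave 0 to 1 lower in Ha vs Hb (0 without Ha replicate 2) and 1 to 2 lower in Ha vs La (1 without La replicate 2), and 3 to 5 higher in Ha vs Hb and 5 to 6 in La vs Lb.

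Some values that were not called changed sign, in part with the median of all genes. CYP26B1 in Ha vs Hb was 0.043 with DESeq2 and 0.043 with RLE factors, both 0.011 relative to that median, where edgeR had 0.0071. STRA6 there was -0.17 with upper-quartile factors, -0.16 with library size alone, -0.21 on log2(FPKM + 1) and -0.33 on log2(FPKM + 0.1), which relative to the median were 0.16, 0.16, 0.070 and 0.15, with no change of sign. CYP26A1 was 0.00269 in Ha vs La on log2(FPKM + 1) (0.022 relative to the median, a change of sign that remained), against -0.51 with edgeR, and in Hb vs Lb 0.014 on log2(FPKM + 1) and 0.059 on log2(FPKM + 0.1), where the relative values of -0.059 and -0.060 kept the sign. With 1 library left out, CYP26B1 ran from -0.18 to 0.15 in Ha vs Hb, STRA6 from -0.25 to 0.30 in Hb vs Lb, and CYP26A1 from -1.10 to 0.024 in Ha vs La and -0.83 to 0.24 in Hb vs Lb, while the interactions of CYP26A1 and ALDH1A2, 0.37 and 0.10 with all libraries, ran from -0.37 to 1.02 and -0.13 to 0.32. The interactions of CRABP1 and RARG were called in all alternatives that were run, from 1.90 to 2.37 and 1.17 to 1.43 with 1 library left out. Deviations from the group means were at most weakly correlated between libraries of the same replicate number (-0.0363 to 0.0527), which matched their own number best in 5 of 18 cases. Between Ha and Hb, replicates 1, 2 and 3 all did so (0.0527, 0.0157 and 0.0496). With 3 libraries per group, these values cannot show whether a number marks anything shared between the groups. A fit with the replicate block kept the direction and call of each log2 fold change of the 10 genes, as with ALDH1A2 in Ha vs Hb at 1.85 in place of 1.92. With at least 10 counts in every library of a group, CYP26A1 was not tested in Ha vs La. A search of promoters for motifs was not run, because no genome or promoter sequences were at hand for this work.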
